A study of Mus musculus with 7 samples.

Results

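The genes examined here are Nnt, which encodes the nicotinamide nucleotide transhydrogenase of the inner mitochondrial membrane, and 9 further genes that supply NADPH to the mitochondrial matrix or belong to its defence against superoxide and peroxide. They are Idh2, Me2, Mthfd2l, Sod2, Prdx3, Prdx5, Txn2, Txnrd2 and Glrx2. The members were taken by gene symbol from the deposited counts, where all 10 were present among 24421 symbols, and all 10 passed the filter on low counts that left 13340 genes to test. Nnt was chosen by its log2 fold change between the genotypes in these same samples, so its difference is described here without a test. The other members were added by function.

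RNA-seq had been done on LSK cells (Lin-Sca1+Kit+), a marrow fraction with the stem and early progenitor cells of the blood. Lethally irradiated BoyJ mice received marrow from RosaCreERT2 donors that carried either a floxed and a wild-type Ddx41 allele or wild-type Ddx41 alleles alone, and were then given tamoxifen at 1 mg a day in 2 rounds of 5 days. Thus both groups carried the tamoxifen-activated recombinase, which is expressed from the Rosa26 locus in all cell types, and both received the agent that activates it. The mouse strains of the study were kept on a C57BL/6N background, and the age and sex of the mice are not given in the sources used here. Each library is taken here as 1 recipient, which the study does not state. Whether recipients of a genotype shared a donor is not stated either, so the samples may not be independent in their donors. LSK cells were sorted 8 weeks after transplant, which gave 4 samples of Ddx41+/+ (numbered 1 to 4) and 3 of Ddx41+/- (numbered 6 to 8), and the sort named in the labels holds no donor marker, so cells left from the host were not separated by it.

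NADPH is the electron donor of the enzymes that reduce glutathione and thioredoxin, and mitochondria must make their own because the inner membrane does not let it through. Nnt couples the return of protons into the matrix to the transfer of hydride from NADH to NADP+. Idh2, the NADP-dependent isocitrate dehydrogenase, and the mitochondrial malic enzyme and folate dehydrogenases also supply matrix NADPH. Superoxide leaking from the respiratory chain is turned into hydrogen peroxide by Sod2, and peroxide is reduced by the peroxiredoxins Prdx3 and Prdx5, which draw electrons from thioredoxin Txn2, its reductase Txnrd2 and finally NADPH. Glrx2 is a glutaredoxin, which acts with glutathione. Among laboratory mice Nnt is known for a natural deletion of several exons in the C57BL/6J substrain, which lacks the functional protein.

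The chemistry that ties the defence genes to NADPH sits in cysteine codons, and the coding sequence around them is shown to identify these members. The stretches were read from the GENCODE M21 transcripts of GRCm38 and run 5′ to 3′ on the coding strand, with the codons of the redox-active residues in capitals.
Txn2: cagtggTGTggccccTGCaagatccta
Glrx2: acatccTGCtcttacTGTtccatggcc
Prdx3: ttcacatttgtgTGTcctacagaaatt
Prdx5: gcatttacacctggcTGTtctaagacc
Txnrd2: gagcctactgtgactggtTGCTGAggc
In thioredoxin and glutaredoxin a pair of cysteine codons is separated by a pair of other codons, whereas each peroxiredoxin stretch holds the cysteine codon that meets the peroxide. The Txnrd2 stretch ends the reading frame and holds a TGA codon that is read as selenocysteine. Glrx2 (chr1:143745086-143745112, plus strand) and Txnrd2 (chr16:18477751-18477777, plus strand) each had the stretch in 1 exon, exon 3 of Glrx2-205 and exon 17 of Txnrd2-215. The stretches of Txn2 (chr15:77924642-77927693), Prdx3 (chr19:60870115-60871421) and Prdx5 (chr19:6907671-6908005) are on the minus strand and cross a splice junction, so their coordinates include an intron.

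The depth of the libraries ranged from 32234499 to 43751290 counts. Values below are in CPM, the counts of a gene scaled to a common library total with TMM factors. The targeted gene was checked first, as Ddx41 was at 92.8 to 106.6 CPM in Ddx41+/+ samples and at 64.4 to 69.5 CPM in Ddx41+/- samples, or 68.8% of the Ddx41+/+ mean. Of the markers of the sorted population, Kit ranged from 427.1 to 505.1 CPM, Cd34 from 646.7 to 830.0 CPM and Ly6a, which encodes Sca1, from 13.3 to 30.5 CPM over all samples. Of the 10 LSK identity markers 9 had a negative log2 fold change and 1, Gata2, was called lower, and their summed level was 1783 to 1971 CPM in Ddx41+/+ and 1616 to 1749 CPM in Ddx41+/- samples. Of 10 mature neutrophil markers 9 had a positive log2 fold change and 1, Mmp9, was called higher, and their summed level was 741.0 to 1255 CPM in Ddx41+/+ and 1335 to 2283 CPM in Ddx41+/- samples, so both of these sums separated the genotypes. The LSK sums did so narrowly, at 1749 against 1783 CPM. Of all tested genes 0.217% were called in either direction (edgeR adjusted p under 0.05), and 10.1% had no overlap in CPM between the genotypes. B-lineage markers summed to 42.7 to 78.8 CPM, macrophage markers to 88.9 to 138.4 CPM and late erythroid markers to 24.7 to 58.0 CPM, with overlap between the genotypes although all 8 B-lineage and all 8 macrophage markers had positive log2 fold changes, and Hba-a1, Hba-a2, Hbb-bs and Hbb-bt were listed at 0. Stroma and endothelium markers summed to 151.3 to 182.3 CPM, mostly from Pecam1, and T and NK markers to 224.1 to 284.1 CPM, mostly from Nkg7. Their defining T cell gene Cd3e was at 0.348 CPM or below.

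Nnt was the member that differed between the genotypes. In Ddx41+/+ replicates 1 to 4 it was at 127.4, 136.0, 132.5 and 126.4 CPM. In Ddx41+/- replicates 6 to 8 it was at 66.7, 66.1 and 74.8 CPM. Every Ddx41+/- sample lay far below every Ddx41+/+ sample, and the spread within each group was small beside the gap. The means were 130.6 ± 4.49 CPM (SD, n = 4) and 69.2 ± 4.88 CPM (SD, n = 3), so Nnt was at 52.98% in Ddx41+/- relative to Ddx41+/+. Single Ddx41+/- samples lay between 50.6% and 57.3% of the Ddx41+/+ mean, with replicate 8 as the highest. The log2 fold change was -0.92 with a standard error (SE) of 0.069, and it ranged from -0.98 to -0.89 over 15 alternative fits. These values rested on 4193 to 5269 counts in Ddx41+/+ and 2227 to 3318 counts in Ddx41+/- libraries. Of all genes tested, 171 had a lower log2 fold change, and the most abundant of those had a mean of 19.7 CPM. In bulk samples, fewer cells that express a gene and less RNA per cell cannot be told apart. The neutrophil and LSK marker sums given above also separated the genotypes, and their part in the Nnt difference was not tested.

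**Figure D1:**
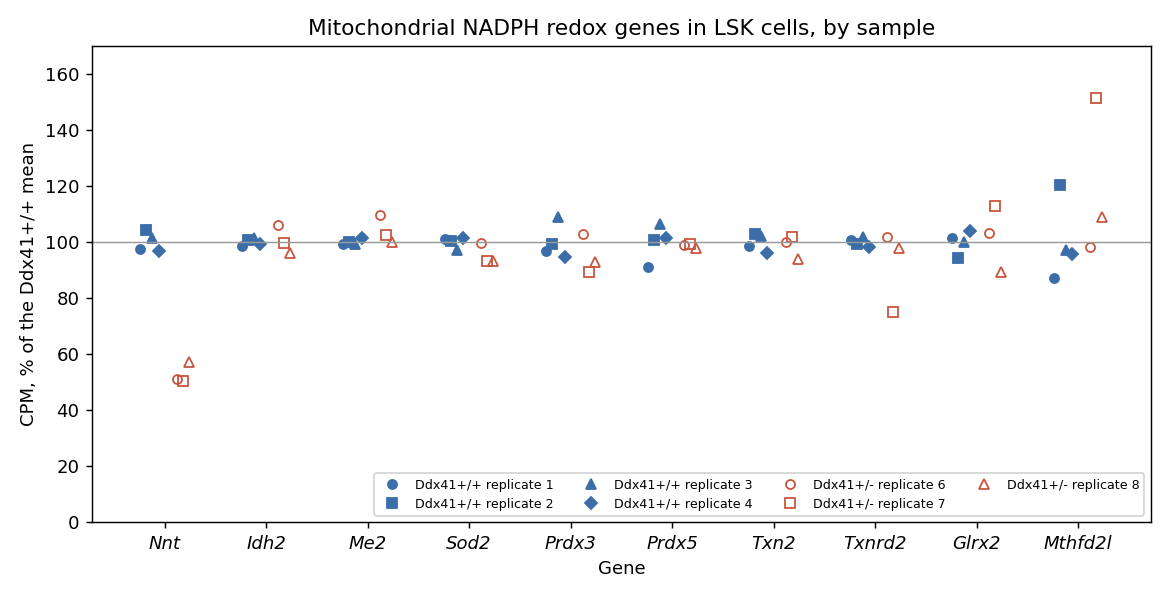
CPM of each of the 10 genes in each sample, as a percentage of the gene's mean in the 4 Ddx41+/+ samples (filled blue, a marker shape per replicate) with the 3 Ddx41+/- samples as open red markers. Nnt lies between 50.6% and 57.3% in the Ddx41+/- samples, whereas the other genes scatter around 100% with overlap between the genotypes, and replicate 7 stands low for Txnrd2 and high for Mthfd2l.

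Nnt lies on the minus strand of chromosome 13 (chr13:119335448-119408997 in GRCm38). The longest coding model of Nnt in GENCODE M21 has 17 exons and a coding sequence of 835 codons, and the annotation holds a second entry with the same symbol that overlaps it on the same strand. GRCm38 is the genome of C57BL/6J, so reads from exons that this substrain lacks have no place in the assembly to be counted. Gene totals show neither which exons were read nor which Nnt allele a library carried.

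The other NADPH sources had overlapping values in the genotypes. Idh2 was at 364.2, 372.0, 374.3 and 366.3 CPM in Ddx41+/+ and at 391.9, 368.6 and 354.8 CPM in Ddx41+/- samples. The highest and the lowest value were both in Ddx41+/- samples, with the Ddx41+/+ samples between them. The log2 fold change of Idh2 was 0.01 (SE 0.057). Me2, the mitochondrial malic enzyme that works with NAD+ and less with NADP+, was at 131.5 to 134.2 CPM in Ddx41+/+ and 132.3 to 145.3 CPM in Ddx41+/- samples (log2 fold change 0.06, SE 0.061). Mthfd2l, a folate dehydrogenase of the matrix, was the least abundant member, with 127 to 211 counts per library. It was at 3.60, 4.97, 4.01 and 3.95 CPM in Ddx41+/+ and at 4.06, 6.26 and 4.51 CPM in Ddx41+/- samples. The groups overlapped, and the high value belonged to replicate 7. Its log2 fold change was 0.26 (SE 0.22) and 0.05 without that sample.

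The peroxide defence genes overlapped between genotypes throughout. Sod2, the manganese superoxide dismutase, was at 88.2, 87.5, 84.7 and 88.3 CPM in Ddx41+/+ and at 86.7, 81.3 and 81.1 CPM in Ddx41+/- samples. Replicates 7 and 8 lay below all Ddx41+/+ samples and replicate 6 among them (log2 fold change -0.07, SE 0.064). Prdx3 was at 107.2 to 123.3 CPM in Ddx41+/+ and 101.1 to 116.2 CPM in Ddx41+/- samples. Prdx5 was at 154.7 to 180.6 CPM and 166.0 to 168.4 CPM, where the Ddx41+/- samples fell inside the Ddx41+/+ range. Their log2 fold changes were -0.07 (SE 0.072) and -0.02 (SE 0.064).

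The thiol carriers and the reductase gave the same picture apart from 1 library. Txn2 was at 167.4 to 179.3 CPM in Ddx41+/+ and 163.8 to 177.0 CPM in Ddx41+/- samples (log2 fold change -0.02, SE 0.060). Glrx2 was at 24.0 to 26.4 CPM and 22.7 to 28.7 CPM (log2 fold change 0.03, SE 0.10). Txnrd2, which passes electrons from NADPH to Txn2, was at 29.9, 29.4, 30.1 and 29.0 CPM in Ddx41+/+ and at 30.2, 22.3 and 29.0 CPM in Ddx41+/- samples. Replicate 7 was the exception, at 75.2% of the Ddx41+/+ mean, while replicates 6 and 8 lay just outside the narrow Ddx41+/+ range on either side. The log2 fold change of Txnrd2 was -0.12 (SE 0.11) in all samples and -0.0017 without replicate 7. Prdx5 overlaps Trmt112 on the opposite strand, so its counts are uncertain where the counting did not use strand.

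Over the 9 members other than Nnt, 4 had a positive and 5 a negative log2 fold change, from -0.12 to 0.26 with a median of -0.02. The median over all genes tested was -0.0048. With edgeR, 0 of the 9 had a Benjamini-Hochberg (BH) adjusted p under 0.05 and 0 an unadjusted p under 0.05, and DESeq2 and limma-voom called 0 as well. The background was 0.217% of all tested genes at an adjusted p under 0.05 (29 genes), 0.0975% when only lower genes are counted, and 10.6% at an unadjusted p under 0.05. Nnt was the 1 called member of 10, and nothing is read from that count because Nnt was chosen through this contrast. The genotypes did not overlap in CPM in 1 of the 10 members, again Nnt, and in 10.1% of all tested genes. A missed threshold does not show that levels were equal, and the median SE over the 9 members was 0.064 on the log2 scale.

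Levels were compared between members per kb of merged exon length. In Ddx41+/+ samples Idh2 was highest at 142.7 ± 1.84 CPM per kb (SD, n = 4), followed by Prdx5 at 79.3 ± 5.06, Prdx3 at 76.5 ± 4.80, Txn2 at 41.4 ± 1.31, Nnt at 18.6 ± 0.64 and Me2 at 18.3 ± 0.17 CPM per kb. Below them were Sod2 at 8.71 ± 0.17, Txnrd2 at 6.73 ± 0.11, Glrx2 at 2.90 ± 0.12 and Mthfd2l at 0.62 ± 0.088 CPM per kb. Prdx5 and Prdx3 overlapped between samples and so did Nnt and Me2, whereas each other pair of neighbours in this order was separate. In Ddx41+/- samples the level of Nnt was 9.83 CPM per kb, with single samples from 9.39 to 10.6, and Me2 was at 19.0 CPM per kb. Nnt was thus in rank 5 of the members in Ddx41+/+ and in rank 6 in Ddx41+/- samples. The order depends on the length used, because the merged exons of Nnt (7037 bp) combine 5 transcripts and its longest transcript has 3464 bp. By longest transcript Nnt was in rank 6 in both genotypes, behind Me2, and Txn2 moved up to rank 3.

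**Figure D2:**
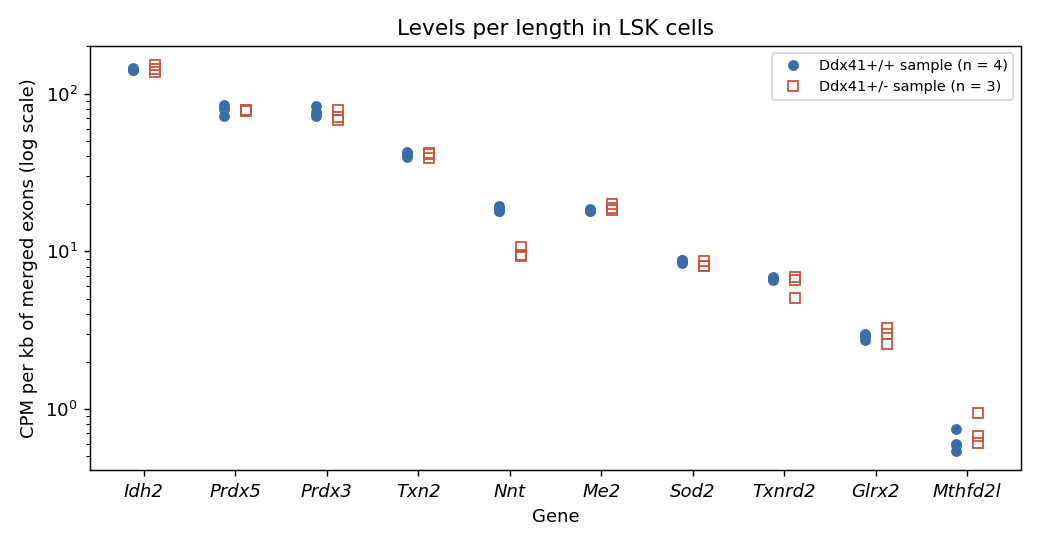
Level of each of the 10 genes in CPM per kb of merged exons (log axis), with a point per Ddx41+/+ sample (blue circles, n = 4) and per Ddx41+/- sample (open red squares, n = 3). Genes are ordered by their Ddx41+/+ mean, from Idh2 at 142.7 to Mthfd2l at 0.62, and Nnt is the gene whose genotypes are apart.

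The balance among the 4 NADPH sources of the group was described by the share of Nnt in their summed level per kb. This share was 10.2%, 10.6%, 10.3% and 10.1% in the 4 Ddx41+/+ samples, against 5.22%, 5.48% and 6.38% in the 3 Ddx41+/- samples. Replicate 8, which had the highest Nnt and the lowest Idh2 level of the Ddx41+/- samples, was closest to the Ddx41+/+ samples. Per longest transcript the share was 12.9% to 13.7% in Ddx41+/+ and 6.82% to 8.30% in Ddx41+/- samples. The ratio of Nnt to Idh2 in CPM, which needs no length, was 0.345 to 0.366 in Ddx41+/+ and 0.170 to 0.211 in Ddx41+/- samples. As both measures contain Nnt, they describe its difference on other scales and carry no test.

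The wider redox network was followed through 7 lists with 69 genes, of which 67 passed the filter. With edgeR, 0 of the 67 had an adjusted p under 0.05 and 3 an unadjusted p under 0.05, and DESeq2 and limma-voom called 0. There were 25 positive and 42 negative log2 fold changes, with a median of -0.02, and the genotypes did not overlap in 4 genes. Of all tested genes, 0.217% had an edgeR adjusted p under 0.05, 10.6% an unadjusted p under 0.05 and 10.1% no overlap.

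Among the wider lists, mitochondrial NADPH supply and the citrate cycle had narrow ranges. Of the 8 further genes of mitochondrial NADPH supply, Me3 and Aldh1l2 were too low to test, and the other 6 lay between log2 fold changes of -0.05 (Slc25a51, which carries NAD+ into the matrix) and 0.01 (Mthfd1l, of mitochondrial folate metabolism), with a median of -0.0049. Slc25a51 was at 132.4 to 140.3 CPM in Ddx41+/+ and 126.6 to 139.4 CPM in Ddx41+/- samples, with overlap. The 11 genes of the citrate cycle and the NAD-linked dehydrogenases, which make the NADH that Nnt uses, ranged from -0.05 for Dlst to 0.05 for Ogdh, both of the oxoglutarate dehydrogenase complex, with a median of 0.02. In these 17 tested genes 0 had an unadjusted p under 0.05, against 10.6% of all tested genes.

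The mitochondrial genes of thiol defence and NADPH use had wider ranges. Among 10 further peroxide and thiol genes the log2 fold changes ran from -0.32 (SE 0.19) for Gstk1, a glutathione transferase at 6.73 CPM in Ddx41+/+ samples, to 0.08 (SE 0.075) for Gsr, the glutathione reductase. Gsr was at 312.7 to 397.1 CPM in Ddx41+/+ samples, and the Ddx41+/- samples, at 378.8 to 393.7 CPM, lay inside that range. Of the 6 enzymes that spend NADPH 2 had a positive and 4 a negative log2 fold change, and the highest was 0.24 (SE 0.20) for Pycr1, of proline synthesis. The medians of these lists were -0.09 and -0.09. Of the 11 genes used as a gauge of mitochondrial content, the extremes were Tomm20, an import receptor, at -0.12 (SE 0.067) and the chaperone Hspd1 at 0.10 (SE 0.062), with a median of -0.03. With edgeR, 0 of these 27 genes had an adjusted or an unadjusted p under 0.05, and DESeq2 and limma-voom called 0. The edgeR shares over all tested genes were 0.217% adjusted and 10.6% unadjusted.

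The cytosolic NADPH enzymes had the largest positive median among the lists, 0.06, with 7 of 11 genes positive. The 3 genes of all 67 with an unadjusted p under 0.05, Idh1, G6pdx and Pgd, were all among these 11, against 10.6% of all tested genes, and 0 of the 11 had an adjusted p under 0.05. Idh1, the cytosolic counterpart of Idh2, was at 95.3, 112.9, 118.4 and 95.1 CPM in Ddx41+/+ and at 114.8, 122.0 and 127.0 CPM in Ddx41+/- samples. It overlapped between the genotypes (log2 fold change 0.20, SE 0.083, edgeR adjusted p = 0.395). G6pdx and Pgd, the NADPH-producing dehydrogenases of the pentose phosphate pathway, were named after their values were seen. G6pdx was at 190.3 to 206.5 CPM in Ddx41+/+ and 207.1 to 238.4 CPM in Ddx41+/- samples, and Pgd was at 331.0 to 372.9 CPM and 379.5 to 416.6 CPM. Neither overlapped between the genotypes, as 10.1% of all tested genes did not, and both missed the threshold (edgeR adjusted p = 0.427 for G6pdx and 0.354 for Pgd). The lowest log2 fold change of the list was that of Me1, the cytosolic malic enzyme, which was under 1 CPM in all samples (-0.23, SE 0.75).

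In cytosolic peroxide and thiol defence 11 of 12 genes had a negative log2 fold change, with a median of -0.08, and 0 of 12 passed at either threshold. Of all tested genes 0.217% passed at the adjusted and 10.6% at the unadjusted threshold. The extremes of the 12 were Prdx4, a peroxiredoxin of the secretory pathway, at -0.19 (SE 0.11) and the glutaredoxin Glrx at 0.04 (SE 0.086). Prdx4 was at 45.9 to 60.4 CPM in Ddx41+/+ and 38.2 to 51.5 CPM in Ddx41+/- samples, with overlap.

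**Figure D3:**
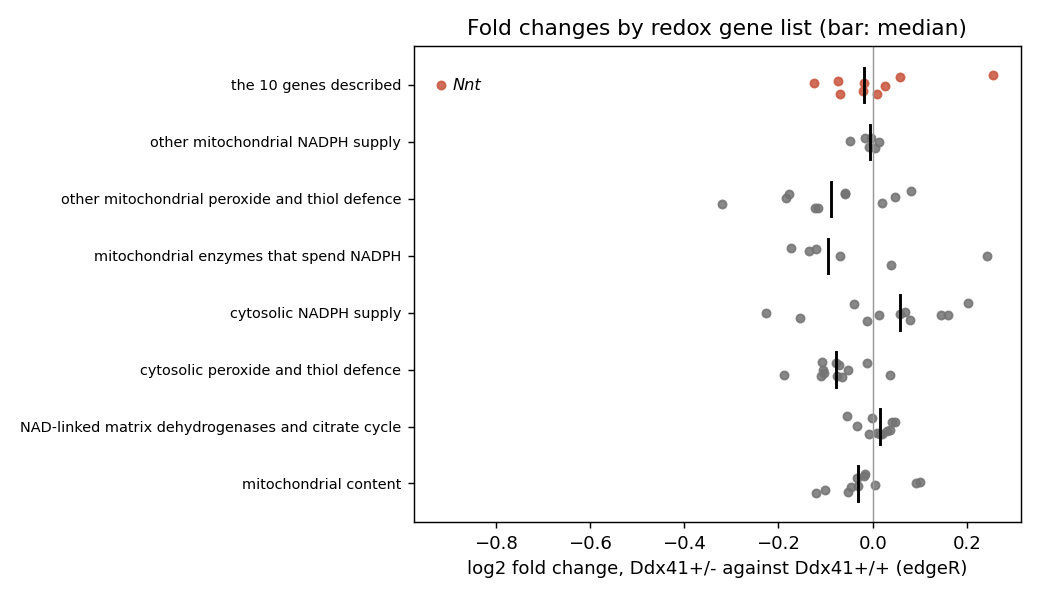
Log2 fold change of Ddx41+/- against Ddx41+/+ samples (edgeR) for the 10 genes described (red) and for the tested genes of 7 wider redox lists (grey), with a bar at each median. Nnt at -0.92 lies apart from the other 76 genes, which range from -0.32 to 0.26.

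Nnt shares its chromosome with the targeted gene. Ddx41 (chr13:55530410-55536658) lies 63.8 Mb from Nnt, and 258 tested genes lie between them. The nearest neighbours were therefore examined. Among the 17 tested genes whose start lies within 5 Mb of that of Nnt, 0 had an edgeR adjusted p under 0.05 and 2 an unadjusted p under 0.05, and DESeq2 and limma-voom called 0. The 2 genes were 11.8% of the 17, against 10.6% of all tested genes. At the edgeR adjusted threshold the share over all tested genes was 0.217%, so 0 calls among 17 genes says little. The median log2 fold change of the 17 genes was 0.10, with 11 positive and 6 negative values. The values ranged from -0.23 to 1.16.

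Paip1, a regulator of translation that starts 0.0932 Mb from the start of Nnt, was at 51.9, 50.4, 52.9 and 41.8 CPM in Ddx41+/+ and at 50.8, 56.5 and 47.3 CPM in Ddx41+/- samples, with overlap. On the other side Mrps30, a mitochondrial ribosomal protein gene, was at 49.4, 53.7, 58.5 and 58.7 CPM in Ddx41+/+ and at 49.6, 43.7 and 47.2 CPM in Ddx41+/- samples. Its groups overlapped at replicate 6 (log2 fold change -0.23, SE 0.084, edgeR adjusted p = 0.326). Parp8 and Emb, the next genes on that side with a mean of at least 1 CPM, had log2 fold changes of 0.10 (SE 0.058) and 0.11 (SE 0.10). By the same limit 4833420G17Rik and Gm7120 follow Paip1, and they had -0.12 (SE 0.084) and 0.44 (SE 0.23). Of the 17 genes within 5 Mb, Parp8 was the 1 without overlap between the genotypes, against 10.1% of all tested genes. It was at 158.0 to 166.3 CPM in Ddx41+/+ and 170.5 to 179.4 CPM in Ddx41+/- samples (edgeR adjusted p = 0.5825). None of the 6 named neighbours stood near the value of Nnt. An exon deletion within Nnt need not alter its neighbours, and whether the genotypes differed in their Nnt allele was not tested.

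Between Ddx41 and Nnt, 1 of 258 genes had an edgeR adjusted p under 0.05, against 0.217% of all tested genes. It was 3830408C21Rik, at a mean of 0.997 CPM in Ddx41+/+ and 3.31 CPM in Ddx41+/- samples, which was higher rather than lower in Ddx41+/- (log2 fold change 1.72, SE 0.32, edgeR adjusted p = 0.03785). The call was lost in 6 of the 7 fits that left out 1 sample, and its adjusted p over all alternatives ranged from 0.00019 to 0.152, the latter without Ddx41+/- replicate 7. The unadjusted p was under 0.05 in 24 genes, or 9.30%, against 10.6% over all genes. The median log2 fold change of the interval was 0.03.

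**Figure D4:**
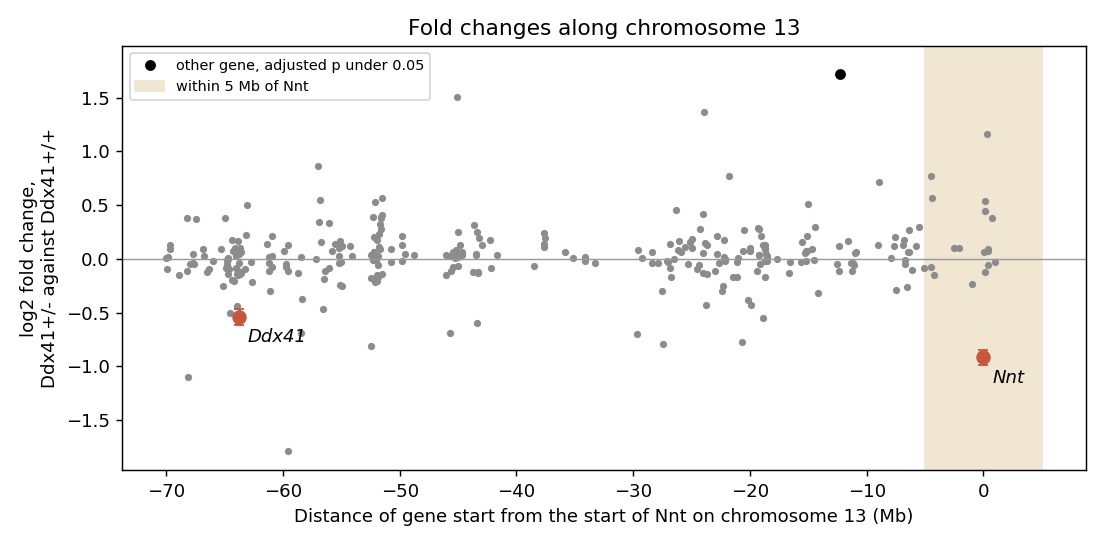
Log2 fold change of tested genes on chromosome 13 against the distance of their start from that of Nnt, with Ddx41 and Nnt in red (error bars: SE) and the 5 Mb around Nnt shaded. Nnt at -0.92 and Ddx41 at -0.54 lie 63.8 Mb apart, and the 17 other genes within 5 Mb of Nnt range from -0.23 to 1.16.

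Genes with a pattern like that of Nnt were sought by Pearson's correlation of log2 CPM over the 7 samples among genes with a mean of at least 1 CPM. Predicted genes, with Gm or Rik names, were left out of this search. The 5 most alike were Cd96, an immunoglobulin-family receptor (r = 0.98), Tsc22d1 (0.98), Egln2, an oxygen-sensing prolyl hydroxylase (0.97), Gimap1, a GTPase of lymphoid cells (0.97), and Ddx41 itself (0.97). The values fall into the genotypes, so r mostly measures a shared step between them and the libraries are common to all genes. It does not measure the size of the step, since Cd96 was at 60.9% of its Ddx41+/+ level in Ddx41+/- samples and Egln2 at 97.1%. The other members correlated with Nnt between -0.65 for Me2 and 0.66 for Sod2 over the same 7 samples.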

How the data were processed

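Poly(A) RNA of LSK cells sorted from recipient mice was sequenced. The authors deposited unscaled counts, with 1 row for each gene symbol. The submitters' processing notes name FastQC 0.11.7, HISAT2 2.0.5, featureCounts 1.5.2 and the build mm10. The labels name the TruSeq Stranded mRNA kit, whereas the study's methods name an unstranded TruSeq RNA kit, so whether the reads carry strand is uncertain. The use of strand and the handling of shared reads in counting are not given in the sources used here. Per the name of the deposited table, a Ddx41+/- library numbered 5 was removed, and it was not analysed here.

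Groups came from the labels. Genotypes were compared in R 4.3.3 by edgeR 4.0.16 (quasi-likelihood, TMM factors, robust dispersion, filterByExpr), with BH adjustment over 13340 genes and a threshold of 0.05. SE was derived from the F statistic and the fold change. Log2 CPM used a prior count of 2. Alternatives were other scalings, no filter, a non-robust fit, DESeq2 1.42.0, limma-voom (limma 3.58.1) without and with sample quality weights, and leaving out each sample. The code was tested on simulated data. Samples differed in pairs by a chi-square per gene of at least 13.7, so no 2 were the same library.

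The members and lists were chosen with earlier results of these data known. Named genes were the 10 members, Ddx41, every list gene with an adjusted p under 0.05 and the highest and lowest log2 fold change of each list, the 3 tested genes at 1 CPM or above on each side of Nnt, and the 5 genes most correlated with Nnt. Those 5 were taken at a mean of at least 1 CPM and without predicted genes (Gm or Rik names). Some items are not reported here. Positions and lengths came from GENCODE M21 (GRCm38), which matched 23384 of 24421 symbols, with 942 more through RefSeq.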

Additional observations from a re-analysis of the deposited data

Results flagged for a closer look

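Of 35 genes checked in the 4 Ddx41+/+ samples, 3 had a sample whose gap to the nearest other one, as a part of the whole range (Dixon's ratio), exceeded the critical value for 4 samples. Chance flags about 1 in 20, or 1.75 of 35, and none of the 3 is among the 10 members. Mthfd1l was at 212.5 CPM in replicate 1 and at most at 190.2 CPM in the others (ratio 0.894). Glrx was at 58.9 CPM in replicate 1 and at least at 70.1 CPM in the others (0.884). Hspd1 was at 634.1 CPM in replicate 3 and at most at 567.8 CPM in the others (0.845).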

How the results depend on the processing

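The log2 fold change of Nnt moved by less than the spread between samples (SD 0.074 on the log2 scale) in all 15 alternatives, from -0.98 to -0.89, and each of the 135 values of the other 9 members moved by less than that gene's own SD. Those SDs ranged from 0.041 (Sod2) to 0.253 (Mthfd2l), and the largest moves were 0.204 for Mthfd2l and 0.122 for Txnrd2 (SD 0.152), both without Ddx41+/- replicate 7. Leaving out 1 sample can hardly move the mean of its group by more than such an SD. For those fits the comparison with the SD therefore shows little about stability. The sign turned in at least 1 alternative for Idh2, Prdx5, Txn2 and Glrx2. The count of 0 called genes in the wider lists and within 5 Mb of Nnt held in every alternative run, windows of 2 and 10 Mb included. The number of genes called over all genes (29) was 15 with library totals only, 91 with no filter, 14 with a non-robust fit, 10 with limma-voom and 164 with DESeq2, and 7 to 41 when 1 sample was left out. It was 7 without Ddx41+/+ replicate 2, 16 without Ddx41+/+ replicate 3, 14 without Ddx41+/- replicate 7 and 9 without Ddx41+/- replicate 8. Of the 29, 16 (55.2%) were higher, against 6 of 15 with library totals only, 29 of 37 (78.4%) without Ddx41+/- replicate 6 and 4 of 14 (28.6%) without Ddx41+/- replicate 7. Between Ddx41 and Nnt the count of 1 was 0 with library totals only, a non-robust fit and limma-voom, 2 with no filter, 4 with DESeq2 and 0 to 1 when 1 sample was left out, with 3830408C21Rik called in 1 of those 7 fits. The level of Nnt in Ddx41+/+ samples, 18.6 CPM per kb, was 37.7 per kb of the longest transcript, which is shorter than the merged exons. The causes of the other shifts were not tested. No paired analysis was possible because the genotypes share no replicate number. Counting error weighs most on Mthfd2l.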

Other observations

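A pair of genes next to the network, named after their values were seen, was lower in Ddx41+/- samples. Txnip, whose protein binds thioredoxin, was at 231.4, 229.7, 244.3 and 224.0 CPM in Ddx41+/+ and at 186.3, 194.3 and 156.6 CPM in Ddx41+/- samples (log2 fold change -0.38, SE 0.073, edgeR adjusted p = 0.0479). It was called in 6 of 15 alternatives and in 1 of the 7 fits without 1 sample, with adjusted p-values from 0.0011 to 0.152, the latter without Ddx41+/- replicate 8. Pink1, a kinase that marks damaged mitochondria, was at 113.2, 116.8, 103.8 and 104.4 CPM in Ddx41+/+ and at 87.7, 69.4 and 82.4 CPM in Ddx41+/- samples (log2 fold change -0.46, SE 0.082, edgeR adjusted p = 0.0339). It was called in 8 of 15 alternatives and in 3 of those 7 fits, with adjusted p-values from 0.000267 to 0.128, the latter without Ddx41+/- replicate 7. Neither gene overlapped between the genotypes, as 10.1% of all tested genes did not. Xist was at 667 to 1167 CPM in all 7 samples and the Y-linked genes Ddx3y, Kdm5d, Eif2s3y and Uty were listed at 0 in each, in both genotypes alike.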
